A study of Mus musculus with 6 samples.

Results

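The transcripts of the mitochondrial chromosome were examined by sequencing total RNA from 4T1, a carcinoma line of the mouse mammary gland. Members were the genes of the count table whose symbol starts with mt-, which gave 37 of 48587 listed genes: 13 mRNAs, 2 rRNAs and 22 tRNAs. By the strand given in the table, 28 lay on the plus strand (12 mRNAs, both rRNAs and 14 tRNAs) and 9 on the minus strand (mt-Nd6 and 8 tRNAs). Plus strand genes are those conventionally called heavy strand genes and minus strand genes are called light strand genes, and these names are used here. Libraries came from 2 groups of 3 biological replicates. METTL7A1 cells were 4T1 cells stably transfected with full-length Mettl7a1 cDNA in pBICEP-CMV-2, a vector with a CMV promoter, and mock cells were 4T1 cells stably transfected with the empty vector. The labels give selection with 350 µg/ml G418 for both groups. Whether either line was a clone or a pool is not given in the sources used here. All differences below are METTL7A1 against mock.

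Mitochondrial DNA is a small circle whose strands are each transcribed, from promoters in the non-coding control region, into long RNAs that span many genes. Most of the rRNAs and mRNAs are flanked by tRNAs, and cutting out the tRNAs releases the mature transcripts, so genes of one strand share a precursor while their mature levels are set largely by processing and stability. The mRNAs encode subunits of complexes I, III and IV and of ATP synthase. Every protein that transcribes, cuts and stabilises these RNAs is encoded in the nucleus.

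Library totals lay between 18386780 and 28459338 counts, and each library followed its label for the transfected gene, with 6355 to 11358 Mettl7a1 counts in METTL7A1 and 29 to 30 in mock libraries. Epcam, Krt8, Krt18 and Cdh1, markers of epithelial cells, had at least 2063 counts in every library, whereas the basal keratin gene Krt5 had 0 counts in all 6, which allows up to 0.102 to 0.164 cpm (3 counts) by library. Krt14, another keratin gene, was at 9.05 to 10.5 cpm in METTL7A1 and 36.8 to 39.1 cpm in mock libraries. Vim, a mesenchymal gene, was at 220 to 272 and 498 to 613 cpm in the same order, and Sparc overlapped between groups. Of the 9 markers of leukocytes, endothelial cells, fibroblasts and adipocytes, 7 (Ptprc, Lyz2, Pecam1, Cdh5, Dcn, Adipoq and Plin1) had at most 16 counts in any library. The other 2 were higher in METTL7A1 libraries, Cd68 at 11.3 to 13.8 against 4.65 to 6.16 cpm and Pdgfra at 23.1 to 25.9 against 16.7 to 19.2 cpm. The part of these differences between the lines in the mitochondrial results was not tested. Counting followed strand: AY036118, a gene in the cytoplasmic ribosomal RNA repeat that is contained in the oppositely oriented Gm42418, exceeded it in 6 of 6 libraries, which counting without strand could not give. AY036118 took 0.502%, 2.57% and 4.53% of the counts of METTL7A1 replicates 1 to 3 and 13.1%, 5.02% and 0.966% of those of mock replicates 1 to 3, so replicate 1 held the lowest share of one group and the highest of the other.

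Levels of 11 members could not be read from these counts. Chromosome 1 carries a nuclear copy of part of the mitochondrial genome, annotated as a row of pseudogenes on the minus strand between positions 24611535 and 24616188 (mm10), and its order and spacing followed mitochondrial positions 6390 to 11042. In that interval the pseudogenes Gm28661 (mt-Co2), Gm10925 (mt-Atp6), Gm28437 (mt-Co3), Gm10222 (mt-Nd4l) and Gm28439 (part of mt-Nd4) were 100% identical to the mitochondrial sequence over 681, 678, 783, 294 and 876 aligned bases. Gm28438 (mt-Nd3) and Gm29216 (part of mt-Co1) each held 1 mismatch. A window of mt-Co2, which encodes a core subunit of cytochrome c oxidase, is shown with its chromosome 1 copy and with a more diverged copy on chromosome 2 to show what a read can and cannot tell apart. Capitals mark bases of the chromosome 2 copy that differ from mt-Co2, and the chromosome 1 copy has none.
mt-Co2 (chrM:7457-7546, plus strand): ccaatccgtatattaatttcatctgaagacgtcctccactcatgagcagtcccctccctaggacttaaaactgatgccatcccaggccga
Gm28661 (chr1:24615032-24615121, minus strand): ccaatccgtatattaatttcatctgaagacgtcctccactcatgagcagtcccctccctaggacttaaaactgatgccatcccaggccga
Gm13341 (chr2:22587441-22587530, minus strand): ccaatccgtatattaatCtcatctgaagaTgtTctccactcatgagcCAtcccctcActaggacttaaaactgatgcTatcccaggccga

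The start of mt-Nd3, a complex I gene, is shown beside Gm28438 because the capital marks the single base in which the aligned 345 bases differ, T3C counted from the first base of mt-Nd3 (mitochondrial position 9461).
mt-Nd3 (chrM:9459-9519, plus strand): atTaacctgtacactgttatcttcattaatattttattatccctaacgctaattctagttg
Gm28438 (chr1:24613059-24613119, minus strand): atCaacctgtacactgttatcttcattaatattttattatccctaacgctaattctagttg

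The 11 members wholly inside the interval had between 0 and 58 counts in any library. These were 6 mRNAs (mt-Co2, mt-Atp8, mt-Atp6, mt-Co3, mt-Nd3 and mt-Nd4l), with 1 to 42 counts, and 5 tRNAs (mt-Ts1, mt-Td, mt-Tk, mt-Tg and mt-Tr). By contrast, the 7 mRNAs and rRNAs wholly outside it had 7021 to 2509654 counts. The 17 tRNAs outside it had 0 to 853 counts, so low counts did not set the tRNAs inside apart. mt-Co1 and mt-Nd4, which lie partly inside, had 8501 to 229106 counts. The share of a gene's stretches of 31 bases that also occurred in annotated nuclear transcripts was 98.1% to 100% for mt-Nd3, mt-Nd4l, mt-Atp6, mt-Co3 and mt-Co2. It was 63.9% for mt-Co1 and 62.8% for mt-Nd4, and lay between 0% (mt-Rnr1 and mt-Nd1) and 16.8% (mt-Nd5) for the remaining mRNAs and rRNAs. mt-Atp8 was low (1 to 3 counts) with only 7.47% of stretches shared, but it lies inside the interval between annotated pseudogenes, where the nuclear sequence was not searched. The 5 tRNAs inside the interval shared 0%, and the same limit applies to them.

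Few counts were assigned to the copies. Gm28438 was assigned 213 to 382 counts, more than mt-Nd3 (15 to 42 counts) in every library. Whether those reads came from the nuclear copy or from mitochondrial transcripts was not tested. The other chromosome 1 copies had at most 63 counts. The chromosome 2 copies Gm13340 (mt-Co1, 97.61% identity) and Gm13341 (mt-Co2, 95.91%) had at most 91 counts. The treatment of reads that match several places is not given in the sources used here. Neither the levels nor the fold changes of members inside the interval are therefore interpreted, and the counts of the copies are not read as their expression. The counts of mt-Co1 and mt-Nd4 were not split into the parts inside and outside it.

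**Figure D1:**
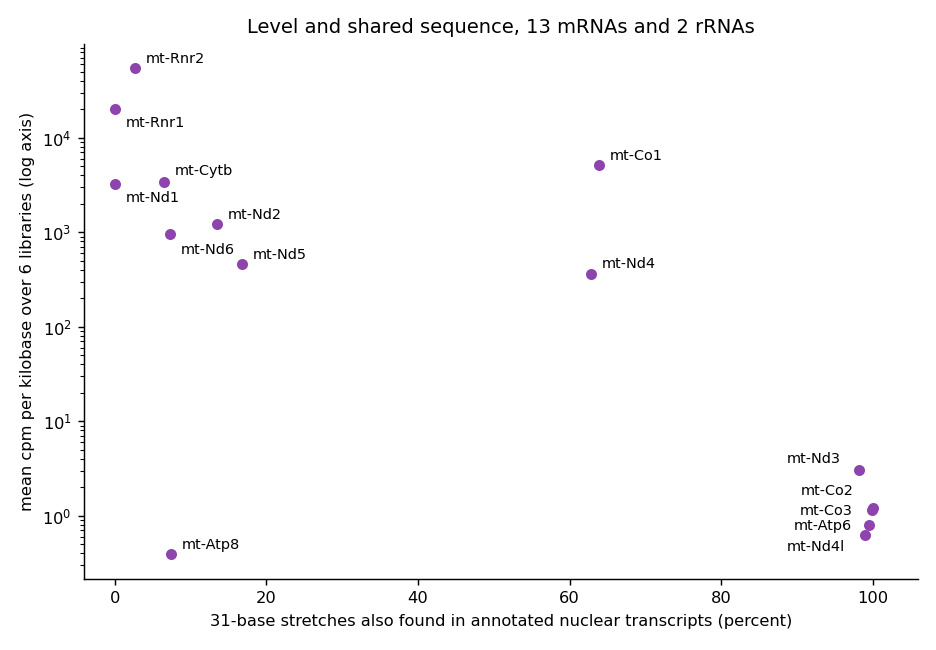
Each point is a mitochondrial mRNA or rRNA, with the percentage of its 31-base stretches also found in annotated nuclear transcripts on the x axis and, on the y axis, its mean level over 6 libraries (cpm per kilobase of full length, log axis). The 5 mRNAs with 98.1% or more shared lie at the bottom right, with mt-Atp8 as the single low mRNA with a small shared part.

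Among the members that could be read, levels per length (cpm per kilobase, with cpm on TMM-scaled library sizes) spanned 2 orders of magnitude. In mock cells mt-Rnr2, the large ribosomal RNA, stood at 45849 ± 5032 cpm per kilobase (SD, n = 3) and mt-Rnr1, the small one, at 16419 ± 2682. As the kit removes ribosomal RNA, these are amounts left after depletion and not cellular levels. mt-Co1, the catalytic subunit of cytochrome c oxidase, was the highest mRNA at 5330 ± 548, followed by mt-Cytb (3539 ± 90.8), the mitochondrial subunit of complex III, and by mt-Nd1 (3207 ± 50.2) of complex I. Of the other complex I mRNAs wholly outside the interval, mt-Nd2 followed at 1125 ± 72.5, mt-Nd6 at 749 ± 17.4 and mt-Nd5 at 507 ± 11.9. No neighbours in this order overlapped between mock libraries. mt-Nd4 has no fixed place in it, as its counts were not split by position. Its level was 377 ± 50.5 over its full length, the lowest. If all its counts came from the 502 bases outside the interval, it would be 1036 ± 139, overlapping mt-Nd2 and above mt-Nd6. mt-Co1 would remain the highest mRNA, at 7755 ± 797, if all its counts came from its 1062 bases outside the interval.

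In METTL7A1 cells the order of these means was the same with mt-Nd4 left out, but the libraries of mt-Cytb (3276 ± 636) and mt-Nd1 (3243 ± 671), and of mt-Nd2 (1300 ± 257) and mt-Nd6 (1169 ± 272), overlapped. mt-Nd5 stood at 409 ± 84.4. mt-Nd4 was at 348 ± 94.0 over its full length. If all its counts came from outside the interval, it would be at 955 ± 258, overlapping both mt-Nd2 and mt-Nd6. METTL7A1 libraries also varied more among themselves: METTL7A1 replicate 1 had the highest value of its group for 9 of the 9 abundant mRNAs and rRNAs (each with at least 7021 counts) and for 19 of the 24 members tested.

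**Figure D2:**
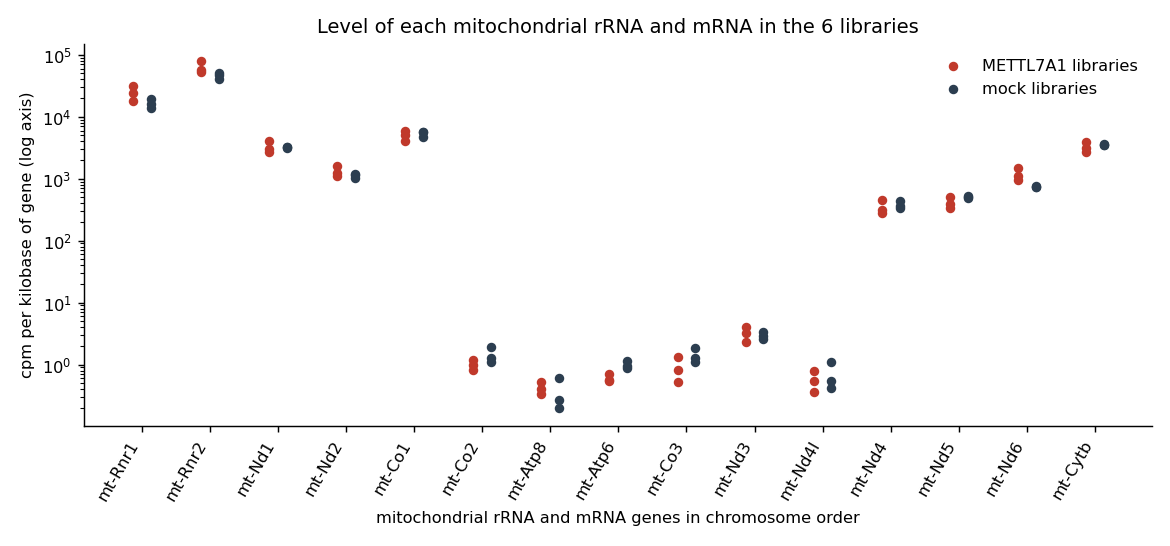
Level of each mitochondrial rRNA and mRNA (y axis, cpm per kilobase of full length, log axis) in chromosome order (x axis), with 1 point per library and 3 libraries per group. Mock means drop from 5330 at mt-Co1 to between 0.357 and 2.90 from mt-Co2 to mt-Nd4l and return to 377 at mt-Nd4, and mt-Nd6 shows METTL7A1 points wholly above the mock points.

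Mitochondrial transcripts took a larger part of METTL7A1 libraries. Their share of all counts was 17.75%, 12.36% and 12.71% in METTL7A1 replicates 1 to 3 and 8.615%, 11.31% and 11.5% in mock replicates 1 to 3. The groups did not overlap, with means of 14.27% ± 3.01 and 10.48% ± 1.62 (SD, n = 3 each). The ratio of geometric means, taken from the mean log2 shares, was 1.355. The highest and the lowest value both belonged to a replicate 1. An exact two-sided permutation test of 3 against 3 libraries cannot give a p below 0.1. In bulk RNA, a change in the number of cells or mitochondria that hold these transcripts and a change in the amount in each cannot be told apart. Without METTL7A1 replicate 1 the log2 ratio of the shares went from 0.44 to 0.27, and without replicate 1 of both groups it was 0.14. The pooled SD of 0.26 includes replicate 1 of both groups, so it does not measure the spread of the remaining libraries. Those stood at 12.36% and 12.71% in METTL7A1 against 11.31% and 11.5% in mock cells, still without overlap. The replicate 1 libraries were also at both ends of the AY036118 share. Taking AY036118 and Gm42418 out of the totals left a ratio of 1.295, and the part of ribosomal depletion in the difference was not tested.

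The difference lay in the rRNAs. They made up 15.59%, 10.57% and 11.22% of METTL7A1 and 6.93%, 9.485% and 9.608% of mock libraries. The mRNAs, which the depletion does not target, held 2.148%, 1.787% and 1.479% of METTL7A1 and 1.677%, 1.824% and 1.886% of mock libraries. Their groups overlapped, and the ratio of geometric means was 0.995. The rRNA to mRNA ratio of counts was 7.258, 5.915 and 7.591 in METTL7A1 against 4.133, 5.201 and 5.095 in mock libraries, without overlap. The 6 mRNAs inside the chromosome 1 interval added at most 42 counts each. The mRNA and total shares and this ratio thus largely leave them out. The tRNAs together held at most 0.0102% of any library.

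**Figure D3:**
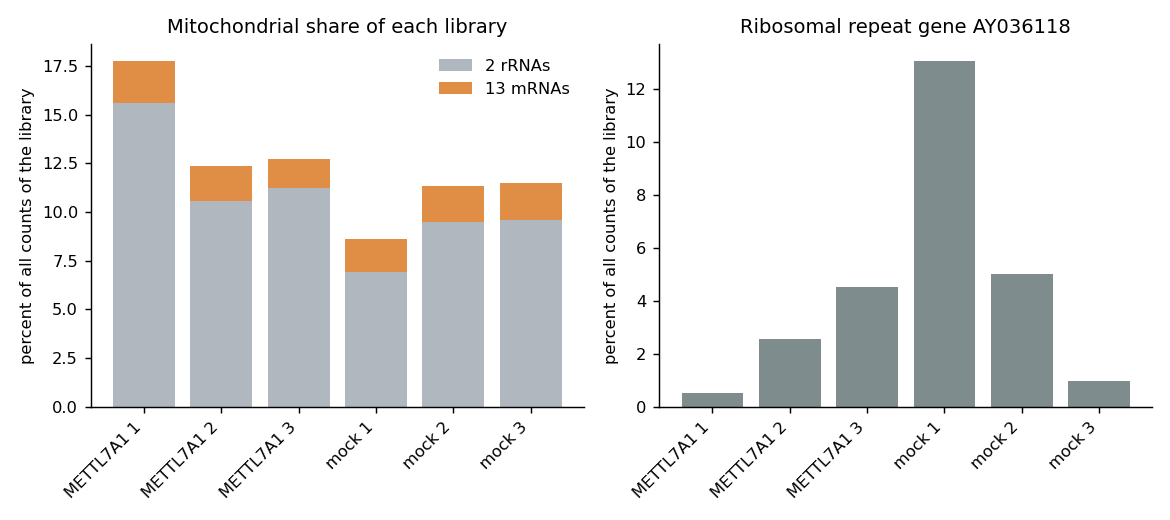
Left, percent of all counts of each library (y axis) held by mitochondrial rRNAs and mRNAs as stacked bars (tRNAs, at most 0.0102%, are not drawn), and right, percent of the same libraries held by AY036118 of the cytoplasmic ribosomal RNA repeat. The mRNA parts of the groups overlap, and the highest and the lowest total, both in replicate 1, are at the lowest and the highest AY036118 share.

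Single members were compared in a fit over all 13166 genes that passed the abundance filter of at least 1 cpm in at least 3 libraries. Of the 37 members 24 passed: 9 mRNAs, both rRNAs and 13 tRNAs. The counts and the median below include mt-Co3, mt-Nd3 and mt-Tr, which lie inside the chromosome 1 interval and are not interpreted. At an adjusted p under 0.05 in edgeR's quasi-likelihood test, 4 of these 24 differed (16.7%), against 42.1% of all tested genes. Those higher in METTL7A1 cells were mt-Nd6, mt-Tl1 and mt-Tp (all genes, 21.1% higher), and mt-Te was lower (all genes, 21% lower). The groups did not overlap for 5 of the 24 members (20.8%), against 51.6% of all tested genes. In 4 of these METTL7A1 libraries were higher (all genes, 25.9%) and in 1 lower (all genes, 25.6%). The median log2 fold change was 0.20 over the 24 members and -0.03 over all tested genes. At the study's thresholds, an adjusted p under 0.01 with a log2 fold change over 1.5 in size, 0 members differed by edgeR, DESeq2 or limma voom, against 2.48% of all tested genes, and 7 members had an unadjusted p under 0.05 in edgeR. The 13 members that did not pass were mt-Co2, mt-Atp8, mt-Atp6, mt-Nd4l and 9 tRNAs, of which mt-Td, mt-Tk and mt-Tg had 0 counts throughout.

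**Figure D4:**
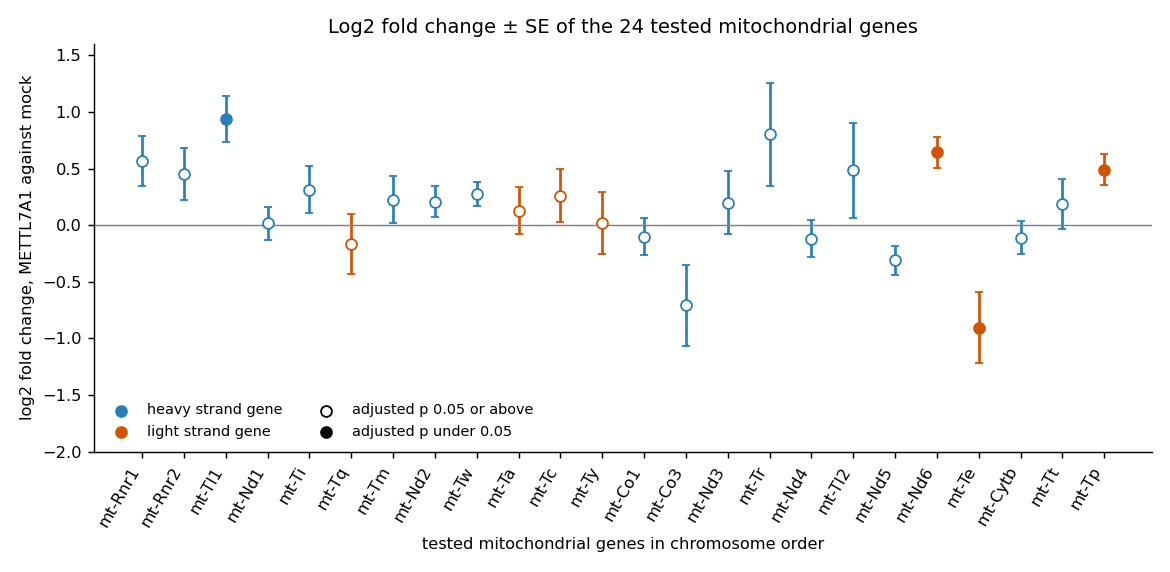
Log2 fold change (y axis) with its SE as error bar for the 24 tested members in chromosome order (x axis), coloured by strand, filled where the adjusted p of edgeR's test was under 0.05. mt-Nd6, the only light strand mRNA, stands at 0.64 above mt-Nd5 and mt-Cytb on either side of it, at -0.31 and -0.11.

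mt-Nd6 (mitochondrial chromosome, 13552 to 14070, minus strand) is the single mRNA read from the light strand and encodes a membrane subunit of complex I. Of its stretches of 31 bases 7.36% also occurred in annotated nuclear transcripts. It had 762, 571 and 486 cpm in METTL7A1 replicates 1 to 3 and 384, 383 and 399 cpm in mock replicates 1 to 3. All 3 METTL7A1 libraries lay above all 3 mock libraries, and the mock libraries were nearly equal. The log2 fold change was 0.64 ± 0.14 (SE, edgeR adjusted p = 0.00312). It passed the test in 19 of 19 alternatives, with log2 fold changes between 0.45 (without METTL7A1 replicate 1) and 0.78.

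The rise of mt-Nd6 also held relative to the other mitochondrial mRNAs. mt-Nd6 made up 3.582%, 3.318% and 3.323% of mitochondrial mRNA counts in METTL7A1 and 2.051%, 2.028% and 2.285% in mock libraries, a ratio of geometric means of 1.608. The 6 mRNAs inside the chromosome 1 interval added at most 42 counts each to this total. On this scale METTL7A1 replicate 1 lay close to the other METTL7A1 libraries. With the mitochondrial mRNA total as library size, the log2 fold change of mt-Nd6 was 0.68 ± 0.20 (SE, edgeR adjusted p = 0.00679). Against mt-Nd5, which overlaps its end on the opposite strand, mt-Nd6 stood at 0.831, 0.816 and 0.786 counts per count in METTL7A1 and 0.425, 0.415 and 0.421 in mock libraries. Against mt-Cytb, its neighbour on the other side beyond mt-Te, the ratios were 0.168, 0.160 and 0.156 in METTL7A1 and 0.0969, 0.0920 and 0.0993 in mock libraries. The differences between the groups' mean log2 ratios were 0.95 and 0.75, against pooled SDs of 0.03 and 0.05 between libraries.

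None of the 8 heavy strand mRNAs tested passed the threshold, and their median log2 fold change was -0.11. The 8 include mt-Co3 and mt-Nd3, which lie inside the chromosome 1 interval and are not interpreted. For the 6 with at least 8501 counts in every library the log2 fold change lay between -0.31 and 0.21. mt-Nd1 had 3820, 2911 and 2580 cpm in METTL7A1 and 3106, 3087 and 3015 cpm in mock libraries, a log2 fold change of 0.02 with a 95% interval of -0.30 to 0.33. mt-Cytb had 4546, 3575 and 3122 cpm in METTL7A1 and 3962, 4164 and 4021 cpm in mock libraries, a log2 fold change of -0.11 (interval -0.43 to 0.21). In both genes METTL7A1 replicate 1 lay above every mock library and METTL7A1 replicates 2 and 3 lay below every mock library. The log2 fold changes were -0.10 for mt-Co1 (interval -0.45 to 0.25), 0.21 for mt-Nd2 (-0.08 to 0.50) and -0.12 for mt-Nd4 (-0.48 to 0.24). These intervals do not show that the mRNAs were equal in both groups. The signs of the log2 fold changes of mt-Nd1, mt-Co1, mt-Cytb and mt-Nd4 turned under at least 1 alternative.

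mt-Nd5, which encodes a core subunit of complex I, had 917, 700 and 619 cpm in METTL7A1 and 904, 924 and 948 cpm in mock libraries. Replicate 1 of METTL7A1 lay among the mock libraries and the other 2 below them. The log2 fold change was -0.31 ± 0.13 (SE, edgeR adjusted p = 0.0725), and it passed the threshold in 5 of 19 alternatives. Without METTL7A1 replicate 1 it was -0.48 (adjusted p = 0.00156). mt-Co3 (10 to 27 counts) and mt-Nd3 (15 to 42 counts), both inside the chromosome 1 interval, had log2 fold changes of -0.71 and 0.20 that were not called.

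Of the rRNAs, mt-Rnr1 (positions 70 to 1024) had 30140, 16870 and 22710 cpm in METTL7A1 and 13170, 18290 and 15580 cpm in mock libraries. The groups overlapped, through METTL7A1 replicate 2 and mock replicate 2. Its log2 fold change was 0.57 ± 0.22 (SE, edgeR adjusted p = 0.0614). mt-Rnr2 (1094 to 2675) had 124300, 84970 and 88410 cpm in METTL7A1 and 64150, 79990 and 73460 cpm in mock libraries, a log2 fold change of 0.45 ± 0.23 (SE, adjusted p = 0.138). Its groups did not overlap, but the lowest METTL7A1 and the highest mock library lay close together. The estimates were positive in 19 of 19 alternatives for both genes, and passed the threshold in 7 for mt-Rnr1 and 6 for mt-Rnr2. Without replicate 1 of both groups they were 0.25 (adjusted p = 0.354) and 0.20 (adjusted p = 0.46). The ratio of mt-Rnr2 to mt-Rnr1 counts overlapped between groups (4.35 ± 0.605 and 4.65 ± 0.254, SD, n = 3 each).

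The tRNAs are shorter than the inserts that such libraries usually keep. Their counts were low, with 0 to 853 per library for the 17 outside the chromosome 1 interval, and cannot tell a mature tRNA from a longer precursor. The 3 that passed the threshold are shown with the anticodon in capitals, since it defines which codons each reads. mt-Tl1 carries leucine and follows mt-Rnr2 without a gap. mt-Tp carries proline and is the first light strand gene after the control region, and mt-Te, which carries glutamate, is the next one and adjoins mt-Nd6.
mt-Tl1 (chrM:2676-2750, plus strand): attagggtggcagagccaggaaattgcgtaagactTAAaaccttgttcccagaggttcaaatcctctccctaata
mt-Tp (chrM:15356-15422, minus strand): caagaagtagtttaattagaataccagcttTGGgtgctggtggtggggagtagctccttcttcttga
mt-Te (chrM:14071-14139, minus strand): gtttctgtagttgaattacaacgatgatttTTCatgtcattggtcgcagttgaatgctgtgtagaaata

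mt-Tl1 had 14.1, 7.99 and 8.88 cpm in METTL7A1 and 4.70, 5.57 and 5.60 cpm in mock libraries. All METTL7A1 libraries were higher, replicate 1 by most, and the log2 fold change was 0.94 ± 0.20 (SE, edgeR adjusted p = 0.00349). It passed the test in 19 of 19 alternatives with values of 0.61 to 1.10, the lowest without replicate 1 of both groups. mt-Tp had 29.91, 28.88 and 23.97 cpm in METTL7A1 and 24.05, 16.22 and 18.88 cpm in mock libraries. METTL7A1 replicate 3 and mock replicate 1 met at the same level, and the log2 fold change was 0.49 ± 0.14 (SE, adjusted p = 0.0137). Its call was lost without METTL7A1 replicate 2 (adjusted p = 0.0606) and without mock replicate 2 (adjusted p = 0.0551).

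mt-Te had 3.18, 3.25 and 2.43 cpm in METTL7A1 and 9.13, 3.84 and 3.95 cpm in mock libraries. All METTL7A1 libraries lay below all mock libraries, but the size of the fall rested on 1 library: mock replicate 1, with 167 counts, stood far above the others. The log2 fold change was -0.91 ± 0.31 (SE, edgeR adjusted p = 0.0369), and -0.38 without mock replicate 1 (adjusted p = 0.188). The call was lost in 6 of 19 alternatives, among them the omission of any METTL7A1 library, of mock replicate 1 or of replicate 1 of both groups.

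The 10 other tRNAs tested were not called. mt-Tw, for tryptophan, came nearest, with 13.4, 11.8 and 12.3 cpm in METTL7A1 and 10.3, 9.78 and 10.8 cpm in mock libraries. Its groups did not overlap, and its log2 fold change was 0.27 ± 0.11 (SE, edgeR adjusted p = 0.0588). Of the rest, log2 fold changes were 0.49 for mt-Tl2, 0.31 for mt-Ti, 0.26 for mt-Tc, 0.22 for mt-Tm, 0.18 for mt-Tt, 0.13 for mt-Ta, 0.02 for mt-Ty and -0.17 for mt-Tq. That of mt-Tr, 0.80 (SE 0.45), is not interpreted, as mt-Tr lies inside the chromosome 1 interval. The 5 tested tRNAs of the light strand other than mt-Te were thus not shifted together: mt-Tp rose, and the 4 others lay between -0.17 and 0.26 without passing the threshold.

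**Figure D5:**
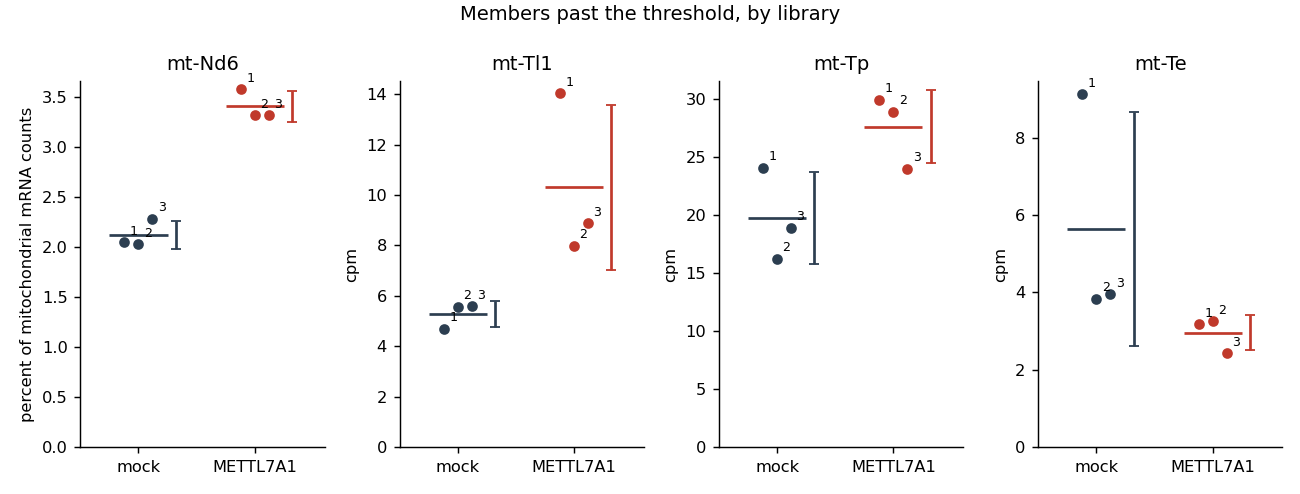
The 4 members with an adjusted p under 0.05, with 1 point per library numbered by replicate, the mean as a line and the SD (n = 3) as a bar, in percent of mitochondrial mRNA counts for mt-Nd6 and in cpm for the tRNAs (y axes). mt-Nd6, mt-Tl1 and mt-Te do not overlap between groups and mt-Tp does, and the size of the mt-Te difference rests mainly on mock replicate 1.

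The balance of the strands depended on which transcripts were counted. Light strand genes held 0.464%, 0.521% and 0.419% of mitochondrial counts in METTL7A1 and 0.459%, 0.356% and 0.410% in mock libraries, and the groups overlapped. As the rRNAs, all on the heavy strand, made up 80.4% to 88.3% of mitochondrial counts, this share moves with them. Among mRNA and tRNA counts the light strand share was 3.816%, 3.588% and 3.582% in METTL7A1 against 2.345%, 2.199% and 2.493% in mock libraries, without overlap. mt-Nd6 alone held 87.1% to 93.4% of light strand counts. Among tRNA counts the light strand share was 53.2%, 58.5% and 54.9% in METTL7A1 and 65.0%, 55.8% and 57.8% in mock libraries, which overlapped. The higher light strand share was therefore that of mt-Nd6.

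A list of 50 nuclear genes for mitochondrial transcription and RNA metabolism was read from the same fit. Of 49 tested, 4 were higher, 15 lower and 30 not called (38.8% called, against 42.1% of all tested genes), with a median log2 fold change of -0.10. Of all tested genes, 21.1% were higher and 21% lower. Whether the list or any role in it departed from these shares was not tested. By role, 2 of 8 transcription genes were higher and 1 lower, and 1 of 11 genes for DNA replication and nucleotide supply was higher and 2 lower. Lower genes were 3 of 5 for transcript cleavage and 5 of 9 for mRNA stability and polyadenylation, with 0 higher in either role. In decay and RNA granules 1 of 5 was higher and 2 lower, and 1 of 6 genes for rRNA modification and 1 of 5 nuclear regulators were lower.

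In transcription, Tfam, which packages mitochondrial DNA and is needed to start transcription, had 61.1, 59.9 and 62.4 cpm in METTL7A1 and 40.7, 41.3 and 39.5 cpm in mock libraries. The groups were well apart, with a log2 fold change of 0.59 ± 0.07 (SE, adjusted p = 4.28e-05 by edgeR). Polrmt, the mitochondrial RNA polymerase, had a log2 fold change of 0.25 ± 0.10 (SE) that did not pass (adjusted p = 0.067, called in 7 of 19 alternatives). Mterf2 was higher (0.72, SE 0.16) and Mterf3, a repressor of mitochondrial transcription, lower (-0.59, SE 0.08). All 4 genes called higher, Tfam, Mterf2, the nuclease gene Dna2 (0.53, SE 0.10) and the RNA helicase gene Supv3l1 (0.34, SE 0.07), lie on chromosome 10, as does Polrmt. The median log2 fold change of abundant genes on that chromosome was 0.29, and its part in these differences was not tested. Supv3l1 was singled out after its value was seen.

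In mRNA stability, Lrpprc and its partner Slirp form the complex that stabilises mitochondrial mRNAs and promotes their polyadenylation, and mt-Nd6 mRNA is known as the exception that depends on it least. Lrpprc had 136, 131 and 130 cpm in METTL7A1 and 195, 191 and 185 cpm in mock libraries, a log2 fold change of -0.52 ± 0.07 (SE, adjusted p = 0.00011 by edgeR). Slirp had 19.3, 21.9 and 22.8 cpm in METTL7A1 and 35.1, 32.8 and 31.1 cpm in mock libraries, a log2 fold change of -0.62 ± 0.09 (SE, adjusted p = 0.000243). Both were lower in every METTL7A1 library than in any mock library. Chromosome 12, which carries Slirp and Rnaseh1, had a median log2 fold change of -0.42, and chromosome 17, which carries Lrpprc, of 0.12. For chromosome 13, which carries Mterf3 and Fastkd3, it was -0.21. The part of these medians in the differences of the single genes was not tested. With the mitochondrial mRNA total as library size Lrpprc did not pass (-0.44, adjusted p = 0.116), nor did Mterf3 (adjusted p = 0.0587), Rnaseh1 (adjusted p = 0.0669) or Rexo2 (adjusted p = 0.128). Fastkd3, another gene of mitochondrial mRNA stability, was lower as well (-0.67, SE 0.09).

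In transcript cleavage, Elac2, the enzyme that cuts at the 3′ end of tRNAs, had 29.3, 29.9 and 29.2 cpm in METTL7A1 and 55.0, 53.3 and 46.4 cpm in mock libraries. This was the largest fall among the 49 genes, a log2 fold change of -0.81 ± 0.08 (SE, adjusted p = 2.27e-05 by edgeR). Lower too were Pprc1, a coactivator of nuclear genes for mitochondrial proteins (-0.61, SE 0.07), Rnaseh1, which removes RNA from DNA hybrids (-0.58, SE 0.12), and Rexo2, which degrades short RNAs (-0.52, SE 0.09). The part of any of these nuclear genes in the levels of mt-Nd6, mt-Tl1 or the other members was not tested.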

How the data were processed

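Total RNA of 6 libraries was prepared by the authors with a stranded Illumina kit and Ribo-Zero Plus, trimmed with BBDuk v38.49, aligned to mm10 with STAR 2.5.3a and assigned to Ensembl GRCm38.97 genes with featureCounts of Rsubread v1.6.4. The deposited values are raw counts per gene, not normalized. The strand and multiple-mapping settings of the counting are not given in the sources used here. Groups and replicate numbers came from the sample titles.

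Counts were compared in R 4.3.3 with edgeR 4.0.16 (TMM factors, quasi-likelihood test, no covariate, all 6 libraries) over 13166 genes with at least 1 cpm in 3 libraries, with Benjamini-Hochberg adjustment over all of them. Cpm are on TMM-scaled library sizes, and shares use raw counts. In simulated data 98 genes were changed by 1 and 102 by 2 on the log2 scale, and 92.9% and 98% of them were recovered, with 14 false calls. Far more genes differed in the real data, and the called members changed by less than 1. The simulation therefore does not give the recovery of such changes. The members and the gene lists were chosen with earlier results of these data known. The log base of the study's fold change threshold is not given in the sources used here and was taken as 2. All mRNAs, rRNAs and tested tRNAs are named. From the nuclear list, Polrmt, Tfam, Lrpprc, Slirp and up to 8 other called genes with the largest fold changes are named, and Supv3l1 in addition. In the table Twnk, Mrm3 and Prorp carry their older symbols (Peo1, Rnmtl1 and 1110008L16Rik). Nuclear copies were sought among GENCODE M21 transcripts with blastn 2.17.0 (at least 100 aligned bases and 95% identity) and by exact stretches of 31 bases, and printed sequences are those of GENCODE M21 on GRCm38. The intergenic genome was not used here.

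Alternatives were RLE, upper quartile, library total, nuclear gene and mitochondrial mRNA scaling, removal of the 20 most abundant nuclear genes, other abundance filters, DESeq2 1.42.0, voom of limma 3.58.1, replicate number as a block and omission of each library. Omission of replicate 1 of both groups, a covariate for AY036118 and totals without AY036118 and Gm42418 were chosen after seeing the data. Same-numbered libraries did not deviate together (correlations -0.15, 0.20 and -0.37).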

Additional observations from a re-analysis of the deposited data

How the results depend on the processing

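The number of members called (4) was 3 to 5 when each library was left out, 8 without the abundance filter (34 members tested) and 8 with a covariate for AY036118, which added mt-Rnr1, mt-Rnr2, mt-Tw and mt-Nd5. The number at the study's thresholds was 0 in 19 of 19 alternatives. The log2 ratio of the mitochondrial share (0.44) was -0.0077 for mRNAs only, 0.14 without replicate 1 of both groups, 0.27 to 0.53 when each library was left out, and 0.34 to 0.50 with other denominators. The log2 ratio of the light strand share (0.20) was 0.68 for mRNAs only, 0.64 without rRNAs, -0.10 for tRNAs only, 0.05 per exon length and 0.10 to 0.29 when each library was left out. By construction, the mRNA, tRNA and rRNA settings count different members; the cause of the other movements was not tested. Of 36 named genes, 14 kept both their direction and their side of the threshold in all alternatives that gave a value. The direction turned for 8 members, none of them called in the reported fit. When each library was left out, log2 fold changes lay between -0.15 and 0.14 for mt-Nd1, -0.22 and 0.027 for mt-Co1, -0.35 and 0.023 for mt-Nd4, -0.26 and 0.0094 for mt-Cytb, -0.42 and 0.20 for mt-Tq, -0.023 and 0.31 for mt-Ta, and -0.17 and 0.31 for mt-Ty. mt-Nd1 was -0.13 and mt-Tt -0.0099 without replicate 1 of both groups, and mt-Nd1 was -0.0012 with the AY036118 covariate.

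With the replicate number as a block, 4 members were called, and the log2 ratios of the mitochondrial and light strand shares were 0.44 and 0.20. The deviations of same-numbered libraries were not positively correlated for every number, which cannot show whether samples were prepared in pairs. The block changed no call of a member. It turned the sign of mt-Nd1 (-0.0040).

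Counts of 0 to 58 per library inside the chromosome 1 interval and of 0 to 853 for the tRNAs outside it limit what can be seen of these members. Inside the interval, few reads and reads that match several places cannot be told apart. Replicate 1 of both groups stood at the ends of the mitochondrial and AY036118 shares, so the size of the share difference rests on them.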
